A study of Homo sapiens with 6 samples.

Results

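The integrin, laminin and collagen genes were examined in RNA-seq of HCT-116 cells, a human colorectal carcinoma cell line. A row of the deposited table was a member when any gene symbol in it was built as an integrin subunit (ITGA or ITGB), a laminin chain (LAMA, LAMB or LAMC) or a collagen chain (COL, a number, A and a number). This rule used no measured value and found 78 of 27918 rows, which were 40 collagen, 27 integrin and 11 laminin genes. ITGBL1, an integrin beta-like protein that is not a receptor subunit, was among the 27. The cells carried either the control GapmeR (GapNC, 3 libraries) or the GapmeR against the long noncoding RNA CASC9 (GapC9, 3 libraries). A GapmeR is a chemically modified antisense oligonucleotide that directs RNase H to its target RNA. Both groups were transfected, no untransfected library was analysed here, and the study's text gives different times after transfection. The labels do not say whether libraries of a group came from separate cultures, so p-values measure the spread between these libraries only.

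The targeted RNA, CASC9, had values of 0, 0.0108 and 0 FPKM in GapNC replicates 1, 2 and 3 and of 0.0528, 0.107 and 0 FPKM in the libraries labelled GapC9. FPKM are fragments per kilobase of transcript per M (mega) mapped fragments. The target was therefore near the floor of the table in all 6 libraries and not lower in those labelled GapC9 (exact permutation test, two-sided p = 0.4, the smallest p that 3 against 3 allows being 0.1). The study measured CASC9 by RT-qPCR and reports that the GapmeR lowered it in HCT-116 cells. FPKM values this near the floor cannot check that. Directions below refer to the libraries as labelled.

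Integrins are receptors of an alpha and a beta subunit that bind matrix outside the cell and couple it to actin or, for the α6β4 pair, to keratin filaments at hemidesmosomes. Laminins are trimers of an alpha, a beta and a gamma chain that form the sheet of the basement membrane on which epithelium rests. Collagens are triple helices, of which type IV builds the network of the basement membrane, type VII the anchoring fibrils below it, and types I, III and V the fibrils of connective tissue. Colorectal epithelial cells make mainly basement membrane components and their receptors, and most fibrillar collagen of the gut wall comes from fibroblasts.

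Of the 78 members, 45 averaged 0.1 FPKM or more and were tested, with 16 integrin, 10 laminin and 19 collagen genes. The other 33 did not exceed 0.145 FPKM in any library. Members were called by an adjusted p under 0.05 (limma on log2(FPKM + 0.1), Benjamini-Hochberg adjustment over 16028 rows), or by a change of the group mean to at least 2 times or at most 0.5 times the control with an unadjusted p under 0.05, which is called the fold rule below. By adjusted p, 5 members rose in the libraries labelled GapC9, against 1.89% of all rows, and 4 fell, against 5.1% of all rows. COL7A1, COL11A2, LAMB3 and COL4A5 were among those that rose, and ITGA6, COL12A1, COL27A1 and LAMC3 fell. By the fold rule 3 members rose (2.1% of all rows) and 5 fell (4.32% of all rows), the added one being COL4A6. An unadjusted p under 0.05 was reached by 23 of the 45 members, against 25.9% of all rows. The groups did not overlap for 27 members, 11 with higher and 16 with lower values in the libraries labelled GapC9, against 34.2% of all rows. Among rows with a mean of at least 1 FPKM, 7 of 28 members and 9.2% of all rows passed the adjusted threshold.

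The adjusted calls depended on which libraries entered the fit. They became 4 higher and 3 lower without GapNC replicate 1 (LAMC1 among the 3), 0 and 0 without GapNC replicate 2, 1 and 1 without GapNC replicate 3, 0 and 1 without GapC9 replicate 1, and 0 and 0 without either GapC9 replicate 2 or GapC9 replicate 3. From 16 to 21 members reached an unadjusted limma p under 0.05 in these fits, against 23 in the full fit. So did 3066 to 4007 of all rows, against 4157 of 16028 in the full fit. Over all rows, 303 higher and 817 lower calls by adjusted p became 16 to 241 and 17 to 573. The 9 called members kept an unadjusted limma p under 0.05 and their direction in each of these 6 fits. Their adjusted p stayed under 0.05 in 3 of the 6 for ITGA6, in 2 for COL7A1, in 1 each for COL12A1, COL11A2 and LAMB3, and in 0 for COL27A1, LAMC3 and COL4A5.

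There was no common direction. Log2 fold changes (GapC9 over GapNC) were positive for 22 members and negative for 23, with a median of -0.01, against a median of -0.08 over all rows tested. Scaling each library to the same median raised the median of all rows by 0.14 on the log2 scale and gave 26 positive and 19 negative members. The same scaling moved the split of adjusted calls over all rows from 303 higher and 817 lower to 483 higher and 427 lower. FPKM are shares of a library, so less RNA of one gene per cell and more RNA of other genes cannot be told apart.

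**Figure D1:**
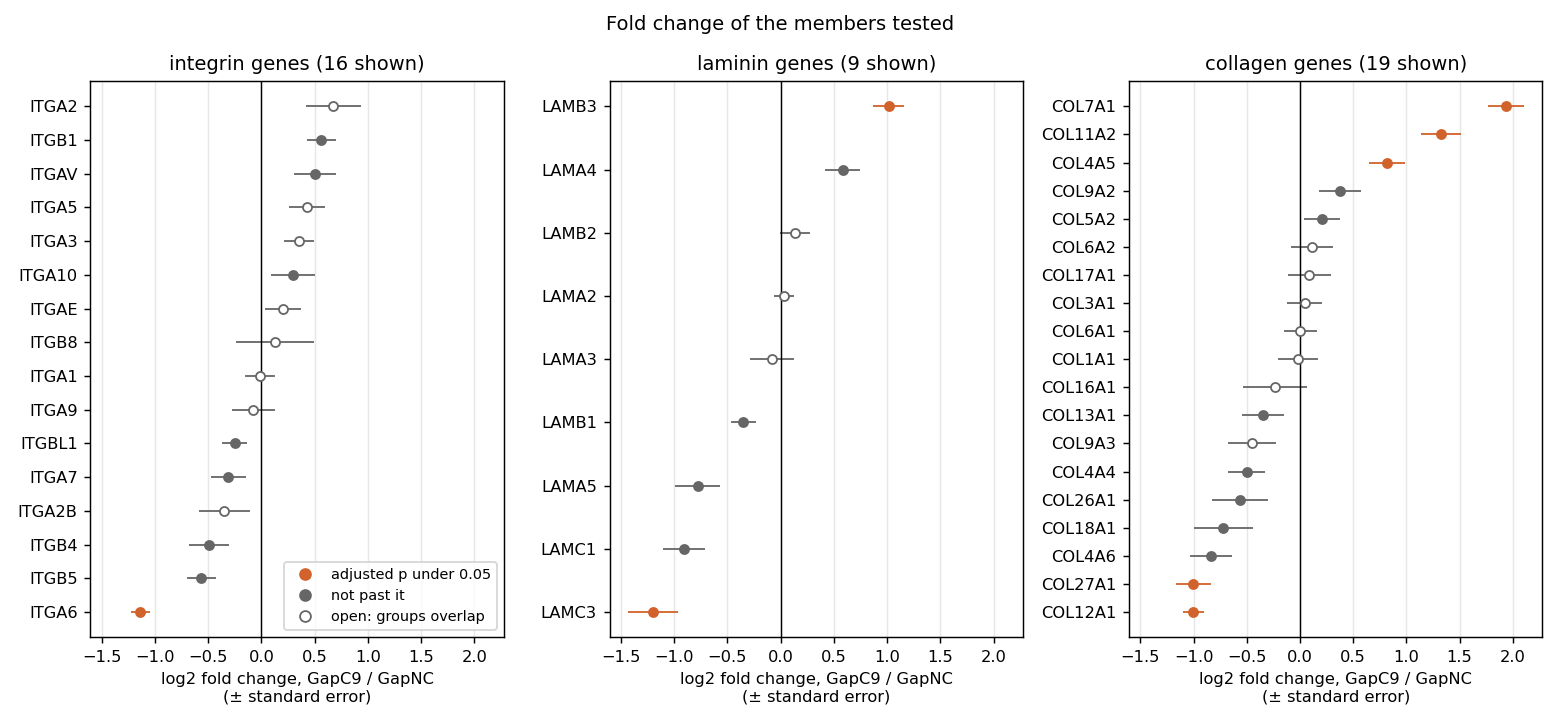
Log2 fold change of FPKM (GapC9 over GapNC, horizontal axis) of 44 members tested, with limma's standard error as bars, in 3 panels by family. Orange marks the 8 shown past an adjusted p of 0.05 and open circles mark members whose groups overlap. The changes run from -1.20 for LAMC3 to 1.93 for COL7A1, and each family holds values on both sides of 0.

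Library size was estimated from rows with 1 listed transcript. The commonest value of FPKM times transcript length, sought only in a preset range of low values, was taken as 1 fragment. By this estimate the libraries were of like size, at 22.75 to 24.38 M (mega) fragments. The members made up 0.239% to 0.262% of the summed FPKM. GapNC replicate 1 stood apart in base composition. Each gene's log2 value was taken relative to its mean over the 6 libraries. In GapNC replicate 1 these relative values were higher the richer genes were in G and C (Spearman's rho across genes with at least 1 FPKM = 0.616). The other 5 libraries ran from -0.376 to 0.0287, with GapC9 replicates 2 and 3 lowest at -0.336 and -0.376. Across the 45 members the same rho was 0.437 in GapNC replicate 1 and between -0.312 and 0.0779 elsewhere. Genes are not independent replicates, and these values describe the libraries. Epithelial keratin KRT18 lay between 318 and 437 FPKM and the adhesion protein EPCAM between 62.3 and 88.4 FPKM. The intestinal markers differed: CDX2 lay between 1.59 and 3.79 FPKM, whereas VIL1, CDX1 and LGALS4 did not exceed 0.0528 FPKM. KRT20 lay between 0.0956 and 0.302 FPKM. CLDN3 was listed at 0 in 5 libraries and at 4.21 FPKM in GapC9 replicate 3. The 5 endothelial markers summed to at most 0.119 FPKM in a library. The 6 leukocyte markers summed to 49.9 to 55.8 FPKM, nearly all from a row at 49.8 to 55.7 FPKM that joins CD68 with EIF4A1, SENP3 and other genes, while the other 5 did not exceed 0.113 FPKM and PTPRC was at most 0.00514 FPKM. GP1BA, the only megakaryocyte marker with a row, was at 1.60 ± 0.257 and 0.910 ± 0.236 FPKM without overlap (limma, unadjusted p = 0.0145, adjusted p = 0.101). The fibroblast markers DCN, LUM and POSTN have no row in the table used here. The fibroblast markers with a row summed to 5.71 to 6.17 FPKM in GapNC and 7.11 to 7.44 FPKM in GapC9, carried by a row that joins PDGFRA with FIP1L1 and by ACTA2. The part of these markers in the values of the matrix genes was not tested.

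Promoter sequences of 57 of the 78 members were in the RefSeq table of GRCh38.p14. The 250 bases before the start of 4 called members are shown because ITGA6 and COL12A1 were the falls with the smallest adjusted p, COL7A1 the largest rise, and COL4A5 faces COL4A6, which moved the other way. Capitals mark short motifs on either strand. The TATA box was searched as TATAAA and the CCAAT box by its own letters. The GC box was searched as GGGCGG and the TEAD site as CATTCC, and the reverse complement of each counted too. Each run is written 5′ to 3′ on the strand of its gene.
COL4A5 (chrX:108439588-108439837, plus strand): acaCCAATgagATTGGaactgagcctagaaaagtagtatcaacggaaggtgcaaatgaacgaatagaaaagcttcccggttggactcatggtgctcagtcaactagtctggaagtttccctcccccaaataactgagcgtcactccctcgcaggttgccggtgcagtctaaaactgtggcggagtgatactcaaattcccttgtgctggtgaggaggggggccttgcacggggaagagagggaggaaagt
COL7A1 (chr3:48595330-48595579, minus strand): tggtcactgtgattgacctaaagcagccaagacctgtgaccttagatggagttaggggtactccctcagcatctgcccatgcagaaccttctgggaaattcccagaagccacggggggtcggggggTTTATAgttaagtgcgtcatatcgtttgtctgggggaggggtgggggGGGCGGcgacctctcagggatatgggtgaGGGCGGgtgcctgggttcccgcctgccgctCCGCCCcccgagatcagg
COL12A1 (chr6:75206054-75206303, minus strand): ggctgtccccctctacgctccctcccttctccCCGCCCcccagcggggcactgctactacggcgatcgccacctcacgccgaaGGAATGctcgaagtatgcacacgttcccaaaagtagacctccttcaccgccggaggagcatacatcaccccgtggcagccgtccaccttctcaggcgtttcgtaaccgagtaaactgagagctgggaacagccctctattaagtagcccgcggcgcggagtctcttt
ITGA6 (chr2:172427086-172427335, plus strand): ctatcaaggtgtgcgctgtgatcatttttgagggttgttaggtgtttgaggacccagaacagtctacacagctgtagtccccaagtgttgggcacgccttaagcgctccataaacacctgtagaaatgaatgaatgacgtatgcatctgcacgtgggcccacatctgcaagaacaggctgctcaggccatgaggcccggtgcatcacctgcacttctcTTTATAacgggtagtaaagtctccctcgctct

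In these windows COL7A1 had GC boxes that begin 77, 48 and 18 bases before the start, and a TATA box read on the other strand at 124 bases. ITGA6 had a TATA box 32 bases before it, read on the other strand. COL12A1 had a GC box at 218 and a TEAD site at 167 bases. Such short words are common: of 35116 windows of the same length, 42.6% held the GC box, 32.0% the CCAAT box, 11.9% the TEAD site and 10.7% the TATA box. An AP-1 site (TGANTCA, 6.57% of windows) and a SMAD element (GTCTAGAC, 0.182% of windows) were also searched, and neither was in the 4 windows. A match is a description of the letters and not a site in use.

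ITGA6 had the smallest adjusted p of the integrin genes. It encodes the alpha 6 subunit, which pairs with ITGB4 at hemidesmosomes and with ITGB1 elsewhere on the basal surface, and lies at chr2:172427354-172506282 (GRCh38, plus strand). It was listed at 35.1, 35.1 and 36.4 FPKM in GapNC and at 14.9, 16.6 and 16.8 FPKM in GapC9. All 3 GapC9 values were below all 3 GapNC values, and the libraries within each group lay close together. The mean went from 35.5 ± 0.721 to 16.1 ± 1.03 FPKM (SD, n = 3 each), a log2 fold change of -1.14 with a standard error of 0.09 (limma, Benjamini-Hochberg adjusted p = 0.0147). With a library left out, the adjusted p ran from 0.0214 to 0.0569 and passed the threshold in 3 of 6 fits. Exons of ITGA6 overlap antisense transcripts, including AC078883.1, which was listed at 0.185, 0.402 and 0.175 FPKM in GapNC and 0.106, 0.176 and 0.0557 FPKM in GapC9. The use of read strand is not stated, so reads of the antisense transcript and of ITGA6 cannot be told apart where they overlap.

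The beta subunits that can take ITGA6 went to different sides. ITGB1, the beta subunit shared by most matrix receptors and the highest member in the table, was listed at 46.3, 63.5 and 53.2 FPKM in GapNC and at 76.6, 87.3 and 75.7 FPKM in GapC9. Its groups did not overlap, with a log2 fold change of 0.56 ± 0.14 (standard error), and it missed the threshold (limma, adjusted p = 0.0681). ITGB4, the partner that anchors hemidesmosomes to keratin, was listed at 57.8, 40.7 and 38.2 FPKM in GapNC and at 36.4, 28.96 and 30.5 FPKM in GapC9. The highest of these values was that of GapNC replicate 1, and the groups did not overlap. ITGB4 had a log2 fold change of -0.49 ± 0.19 with an adjusted p of 0.169 (limma), and of -0.31 without GapNC replicate 1.

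Ratios between subunits within a library do not depend on a single scale factor for that library. A trend of a library on GC content does not cancel in them, and its part was not tested. GC content was 42.4% for ITGA6, 58.3% for ITGA3, 42.5% for ITGB1 and 62.7% for ITGB4. The ratios were chosen after the values were seen and carry no test. ITGA6 over ITGA3 was 1.06, 1.37 and 1.46 in GapNC and 0.390, 0.478 and 0.507 in GapC9, so ITGA6 was above ITGA3 in each control library and below it in each library labelled GapC9. ITGB1 over ITGB4 was 0.801, 1.56 and 1.39 in GapNC and 2.11, 3.02 and 2.48 in GapC9. The ratio of ITGA6 to ITGB4 had a mean of 0.807 ± 0.178 in GapNC and 0.511 ± 0.0880 in GapC9 (SD, n = 3 each).

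None of the other 15 integrin genes tested passed either rule. ITGA2, the collagen receptor subunit that pairs with ITGB1, was at 13.3 ± 2.51 and 21.6 ± 6.05 FPKM, and its groups overlapped through GapC9 replicate 2 at 15.0 FPKM. ITGA3, a laminin receptor subunit, was at 27.9 ± 4.66 and 35.4 ± 2.64 FPKM with overlap. ITGA5, the fibronectin receptor subunit, was at 8.86 ± 1.66 and 11.9 ± 1.49 FPKM with overlap. Unadjusted p-values of these 3 in limma were 0.0393, 0.0483 and 0.0457, with adjusted values of 0.171, 0.189 and 0.184. ITGAV, which pairs with several beta subunits to bind RGD ligands such as vitronectin, was at 7.10 ± 1.66 and 9.96 ± 1.02 FPKM (log2 fold change 0.50 ± 0.20, adjusted p = 0.178), with no overlap, and its change was 0.32 without GapNC replicate 1, its lowest library. Its partner ITGB5 was at 8.71 ± 1.36 and 5.81 ± 0.2196 FPKM (log2 fold change -0.56 ± 0.14, adjusted p = 0.0679), also with no overlap and on the other side. The further partners of ITGAV were scarce, with ITGB3 at 0.0617 to 0.102 FPKM, ITGB6 at 0 to 0.0215 FPKM and ITGB8 at 0.0940 to 0.386 FPKM.

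ITGAE, the alpha subunit of a receptor for E-cadherin that is typical of lymphocytes within epithelium, had means of 1.80 and 2.08 FPKM and overlapping groups. Exons of HASPIN overlap those of ITGAE on the opposite strand. A row that joins ITGA1 with PELO had means of 1.35 and 1.33 FPKM and cannot be assigned to ITGA1 alone. ITGBL1 had means of 2.08 and 1.73 FPKM without overlap (adjusted p = 0.231). Apart from ITGAE, subunits typical of leukocytes and platelets were near the floor. ITGA4 was at 0.0107 FPKM or less, ITGAM at 0.145 FPKM or less, and ITGA2B at 0.125 to 0.266 FPKM. Summed over all 27 genes, integrin FPKM were 198 to 217 in GapNC and 217 to 224 in GapC9.

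**Figure D2:**
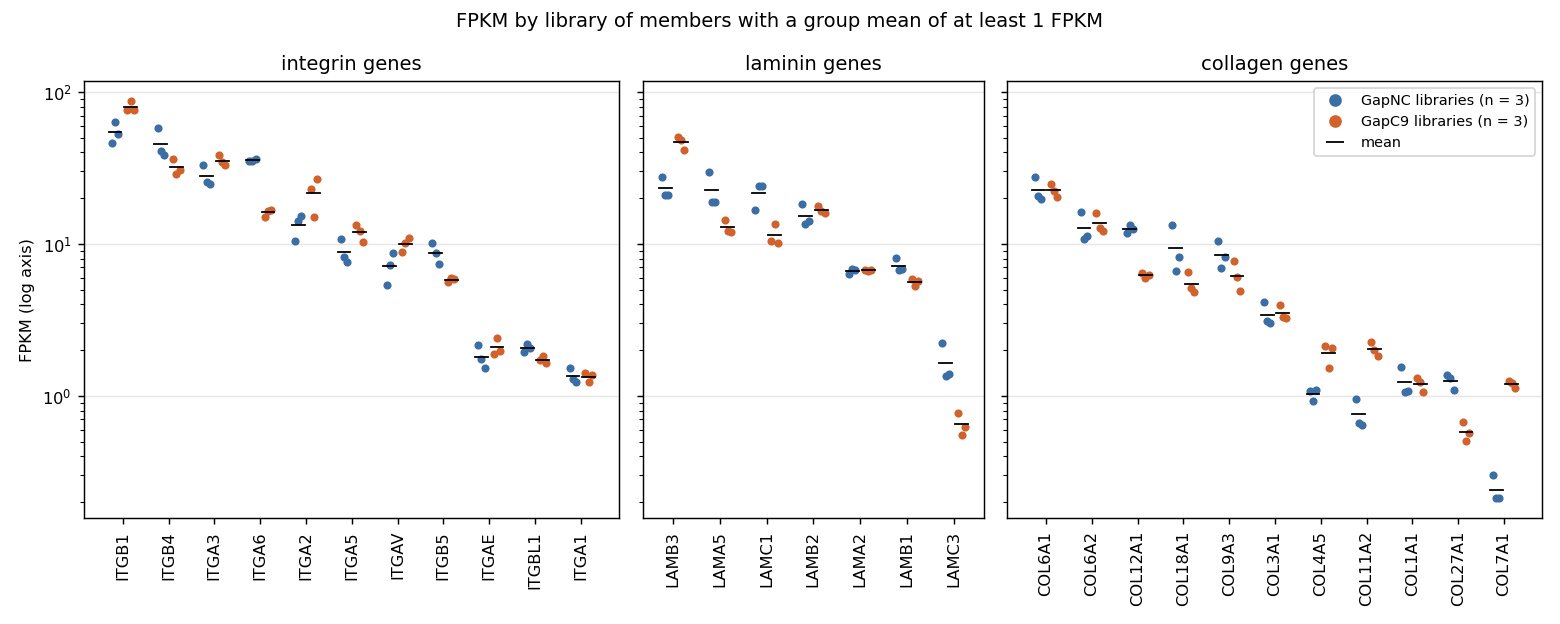
FPKM (log axis) in each library of 29 members with a group mean of at least 1 FPKM, in 3 panels by family and ordered by level. Blue points are the 3 GapNC libraries, orange points the 3 GapC9 libraries and black bars the means. ITGA6 sits near 35.5 in blue and 16.1 in orange, LAMB3 at 23.3 and 46.9, and COL7A1 at 0.241 and 1.20.

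Of the laminin beta chains, LAMB3 rose. It is the beta chain of the epithelial laminin whose alpha chain is LAMA3 and to which hemidesmosomes attach, and it lies at chr1:209614870-209652466 (GRCh38, minus strand). It was listed at 27.7, 21.1 and 21.0 FPKM in GapNC and at 50.8, 48.1 and 41.6 FPKM in GapC9. Every GapC9 value was above every GapNC value. The mean went from 23.3 ± 3.82 to 46.9 ± 4.72 FPKM, a ratio of 2.01 and a log2 fold change of 1.01 ± 0.15 (limma, adjusted p = 0.0255, and 0.0239 to 0.106 with a library left out). LAMB1, the beta chain of many other laminins, was at 7.20 ± 0.753 and 5.61 ± 0.310 FPKM without overlap (log2 fold change -0.35 ± 0.12, adjusted p = 0.134). LAMB2, prominent at synapses and in the kidney filter, was at 15.3 ± 2.59 and 16.7 ± 0.946 FPKM with overlap. The ratio of LAMB3 to LAMB1 was 3.43, 3.14 and 3.08 in GapNC and 8.69, 9.13 and 7.27 in GapC9.

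Of the gamma chains, LAMC3, a gamma chain of restricted distribution, was listed at 2.22, 1.35 and 1.38 FPKM in GapNC and at 0.768, 0.557 and 0.626 FPKM in GapC9. It fell without overlap, with a log2 fold change of -1.20 ± 0.23 (limma, adjusted p = 0.0415), and gave -0.98 and an adjusted p of 0.0515 without GapNC replicate 1, its highest library. The call was also lost with a pseudocount of 1 FPKM, which gave -0.67, and under median scaling (adjusted p = 0.0507 in each), and with no filter on low values (0.0796).

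LAMC1, the gamma chain of most laminins, was listed at 16.6, 24.0 and 23.9 FPKM in GapNC and at 10.4, 13.5 and 10.2 FPKM in GapC9. Its groups did not overlap, and its log2 fold change of -0.91 ± 0.20 had an adjusted p of 0.0501 (limma), just above 0.05, so it was not called. Without GapNC replicate 1, its lowest control, the change was -1.08 with an adjusted p of 0.0357. It lies at chr1:183023460-183145592 (GRCh38, plus strand).

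The alpha chain that joins LAMB3 was scarce. LAMA3 was listed at 0.231, 0.367 and 0.293 FPKM in GapNC and at 0.273, 0.243 and 0.299 FPKM in GapC9. Its groups overlapped and its log2 fold change was -0.08 ± 0.21 (limma, adjusted p = 0.834). LAMB3 exceeded it 57.6 to 120 times in GapNC libraries and 139 to 198 times in those labelled GapC9. LAMA5, the alpha chain of the widespread epithelial laminin, was listed at 29.9, 18.9 and 18.9 FPKM in GapNC and at 14.4, 12.1 and 11.9 FPKM in GapC9. Groups did not overlap, with a log2 fold change of -0.78 ± 0.21 and an adjusted p of 0.0818 (limma). That change was -0.56 without GapNC replicate 1, which held its highest value. Exons of ADRM1 and of LAMA5-AS1 overlap those of LAMA5 on the opposite strand, and the LAMA5 row also joins MIR4758. LAMA2, typical of muscle, was between 6.29 and 6.80 FPKM in all 6 libraries, with a log2 fold change of 0.03 ± 0.09. LAMA4, typical of vessel walls, was at 0.403 ± 0.0612 and 0.649 ± 0.0179 FPKM without overlap (log2 fold change 0.58 ± 0.16, adjusted p = 0.0902). LAMA1 did not exceed 0.0298 FPKM.

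**Figure D3:**
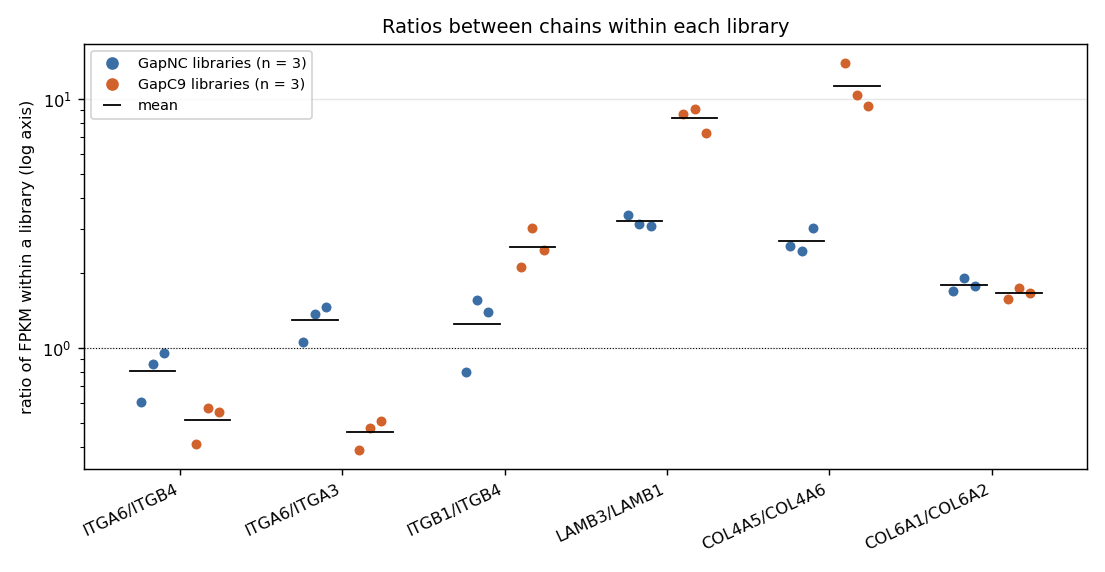
Ratio of the FPKM of 6 pairs of chains within each library (log axis), with blue points for the 3 GapNC libraries, orange points for the 3 GapC9 libraries and black bars for the means. The groups are separate for 5 pairs, such as LAMB3 over LAMB1 with means of 3.22 and 8.37, and overlap for COL6A1 over COL6A2 with means of 1.79 and 1.66. The pairs were chosen after the values were seen and carry no test. Of the pairs not plotted, LAMA5 over LAMA3 overlapped, and LAMB3 over LAMA3 and COL7A1 over COL12A1 did not.

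Among collagens, COL7A1 had the largest rise of all members. It encodes the chain of type VII collagen, whose anchoring fibrils tie the basement membrane to the tissue below, and lies at chr3:48564073-48595267 (GRCh38, minus strand). It was listed at 0.3005, 0.211 and 0.213 FPKM in GapNC and at 1.25, 1.21 and 1.13 FPKM in GapC9. Both groups were tight and far apart, although the control level was low. The ratio of means was 4.95 and the log2 fold change 1.93 ± 0.17 (limma, adjusted p = 0.0147), and 0.82 with a pseudocount of 1 FPKM, which shrinks the change of a low gene. With a library left out, the adjusted p ran from 0.0190 to 0.0698.

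COL12A1 fell. Its product decorates collagen fibrils, and the gene lies at chr6:75084326-75206051 (GRCh38, minus strand). It was listed at 11.8, 13.4 and 12.5 FPKM in GapNC and at 6.42, 5.99 and 6.26 FPKM in GapC9. The groups were separate, with a log2 fold change of -1.003 ± 0.10 (limma, adjusted p = 0.0159, and 0.0214 to 0.0718 with a library left out). No other gene's exons overlap those of COL12A1 in the annotation.

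COL11A2 and COL27A1 are fibrillar chains of cartilage and moved in opposite directions. COL11A2 (chr6:33162681-33192499, minus strand) was listed at 0.959, 0.666 and 0.639 FPKM in GapNC and at 2.26, 2.0002 and 1.82 FPKM in GapC9. It rose with a log2 fold change of 1.33 ± 0.19 (limma, adjusted p = 0.0239). Its usual partners in type XI collagen, COL11A1 and COL2A1, did not exceed 0.01002 and 0.0376 FPKM. COL27A1 (chr9:114155560-114312511, plus strand) was listed at 1.37, 1.31 and 1.10 FPKM in GapNC and at 0.671, 0.504 and 0.568 FPKM in GapC9. It fell with a log2 fold change of -1.002 ± 0.16 (limma, adjusted p = 0.0307, and 0.0646 with no filter on low values), and the groups did not overlap for either gene.

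The type IV genes COL4A5 and COL4A6 are arranged head to head on the X chromosome, with RefSeq starts 380 bases apart. The upstream windows of 250 bases share 121 bases, which are the first 121 letters of the COL4A5 run above and hold both of its CCAAT boxes. COL4A5 (chrX:108439844-108697545, plus strand) was listed at 1.07, 0.929 and 1.09 FPKM in GapNC and at 2.12, 1.52 and 2.06 FPKM in GapC9. It rose, with a log2 fold change of 0.81 ± 0.17 (limma, adjusted p = 0.0467). The call was lost with a pseudocount of 1 FPKM and without the trend (adjusted p = 0.0523 in each) and with no filter on low values (0.0880). COL4A6 (chrX:108155607-108439497, minus strand) was listed at 0.416, 0.381 and 0.360 FPKM in GapNC and at 0.153, 0.146 and 0.2196 FPKM in GapC9. It fell by the fold rule, with a ratio of 0.449 and a log2 fold change of -0.84 ± 0.20 (limma, unadjusted p = 0.00533, adjusted p = 0.0612). Groups of both genes were separate and on opposite sides, and the ratio of COL4A5 to COL4A6 was 2.57, 2.44 and 3.03 in GapNC against 13.9, 10.4 and 9.37 in GapC9. COL4A1 and COL4A2, the chains of the common type IV network, did not exceed 0.0318 and 0.115 FPKM. COL4A4 was at 0.432 ± 0.0258 and 0.277 ± 0.0403 FPKM without overlap (adjusted p = 0.143), and its head-to-head neighbour COL4A3 did not exceed 0.0655 FPKM.

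Chains of the beaded filament collagen type VI were the highest collagens with no call. COL6A1 was at 22.6 ± 4.15 and 22.5 ± 2.23 FPKM and COL6A2 at 12.7 ± 2.95 and 13.6 ± 1.96 FPKM, each with overlap. Their log2 fold changes of 0.00 ± 0.16 and 0.11 ± 0.19 give intervals of 1 standard error that include 0, which does not show an absence of change. After each library's trend on GC content was removed, as described below, both were higher (limma, adjusted p = 0.0203 and 0.0142). The third chain of that trimer, COL6A3, did not exceed 0.00893 FPKM. COL18A1, the source of endostatin in basement membranes, was at 9.41 ± 3.53 and 5.48 ± 0.902 FPKM without overlap (log2 fold change -0.72 ± 0.28, adjusted p = 0.176), and at -0.44 without GapNC replicate 1, which held 13.4 FPKM. COL9A3 was at 8.499 ± 1.80 and 6.19 ± 1.41 FPKM with overlap. Of the interstitial fibril genes, COL3A1 was at 3.43 ± 0.615 and 3.51 ± 0.404 FPKM and COL1A1 at 1.23 ± 0.273 and 1.20 ± 0.123 FPKM, both with overlap. COL1A2, the usual partner of COL1A1, was listed at 0 in 5 libraries and at 0.00185 FPKM in GapC9 replicate 2. COL17A1, a transmembrane collagen of hemidesmosomes, was at 0.385 ± 0.0526 and 0.420 ± 0.0888 FPKM with overlap.

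The remaining tested members were low and not called. ITGA7, ITGA9, ITGA10, COL5A2, COL9A2, COL13A1, COL16A1 and COL26A1 ranged from 0.0474 to 0.865 FPKM over the 6 libraries. Without overlap, ITGA7, COL13A1 and COL26A1 were lower and ITGA10, COL5A2 and COL9A2 higher in GapC9 (limma, adjusted p from 0.238 to 0.494). The groups overlapped for ITGA9 and COL16A1. Of the 33 members below the filter, 13 were listed at 0 in at least 1 library, and none of the 45 tested was. These 33 were not tested.

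GC content was looked at because of GapNC replicate 1. Median GC content of the listed transcripts was 54.2% over the members and 50.2% over all rows tested. Fold changes and GC content had a Spearman's rho of -0.330 across the expressed genes and of -0.158 across the 45 members. After each library's trend on GC content was removed, 13 members were higher at an adjusted p under 0.05, against 6.58% of all rows, and 8 were lower, against 7.69% of all rows. The 9 called members were among these 21. COL4A6, LAMC1, LAMA5 and ITGB5 joined the lower side, and ITGB1, ITGAV, ITGA3, ITGA5, LAMA4, LAMB2, COL6A1 and COL6A2 the higher side. Those p-values leave out the uncertainty of the correction itself. GC content was 63.3% for COL7A1, 62.0% for LAMC3, 47.5% for COL4A5 and 42.4% for ITGA6.

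**Figure D4:**
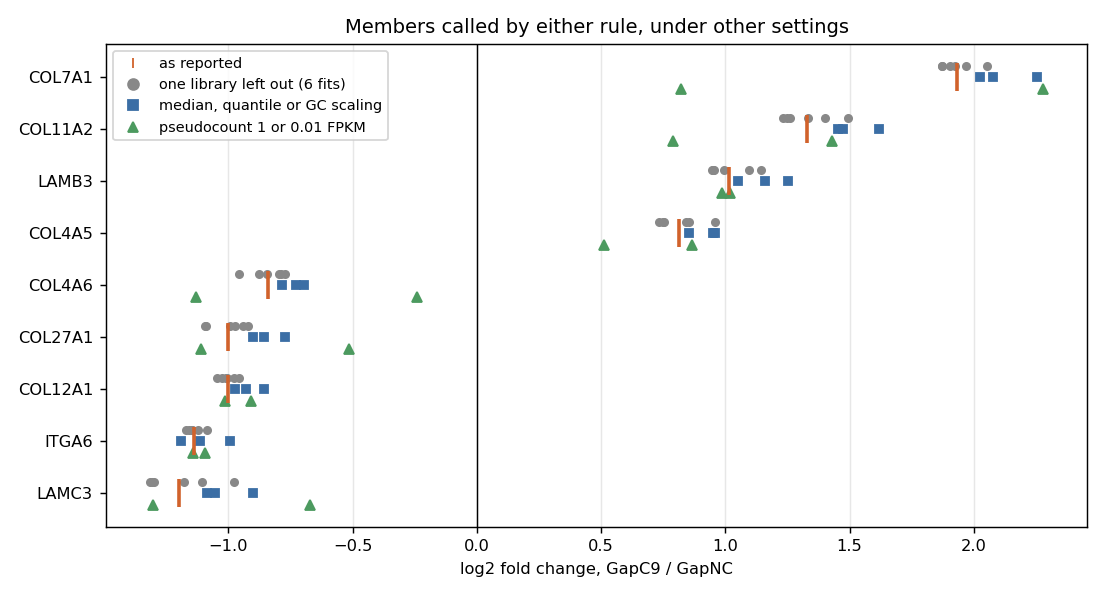
Log2 fold change (GapC9 over GapNC) of 9 members called by either rule, as reported (orange bar), with a library left out (gray), under another scaling or a GC correction (blue) and with another pseudocount (green). Each member keeps its side of 0 throughout, while COL7A1 moves from 1.93 to 0.82 with a pseudocount of 1 FPKM.

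Genes that act with these receptors and chains were counted from lists made for the purpose. Of 33 tested adaptors and kinases of cell adhesion, 0 rose and 4 fell by adjusted p (limma; 1 higher and 10 lower at an unadjusted p under 0.05), against 1.89% and 5.1% of all rows by adjusted p and 25.9% by unadjusted p in both directions. Their median log2 fold change was -0.25, against -0.08 over all rows. FERMT1, a kindlin that activates integrins, went from 7.70 ± 0.790 to 4.65 ± 0.386 FPKM (limma, adjusted p = 0.0336). PTK2B, a kinase related to focal adhesion kinase, went from 2.04 ± 0.248 to 1.03 ± 0.129 FPKM (adjusted p = 0.0311). The tensin TNS3 went from 3.87 ± 0.661 to 1.67 ± 0.460 FPKM (adjusted p = 0.0455) and the LIM adaptor LIMS2 from 0.545 ± 0.0225 to 0.201 ± 0.0431 FPKM (adjusted p = 0.0311). The parvin PARVA fell by the fold rule only, from 3.81 ± 0.0280 to 1.55 ± 0.846 FPKM (adjusted p = 0.0680).

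None of the 4 tested partners in hemidesmosomes passed either rule. At an unadjusted limma p under 0.05, 1 was lower, against 25.9% of all rows in both directions. The plakin PLEC was at 75.5 ± 16.5 and 68.9 ± 7.03 FPKM with overlap, and the tetraspanin CD151 was at 41.8 ± 11.1 and 28.98 ± 2.81 FPKM without overlap (adjusted p = 0.179). Of 26 tested genes of collagen processing, 1 rose and 1 fell by adjusted p, and 2 were higher and 5 lower at an unadjusted p under 0.05, read against the same shares of all rows, with a median of -0.30. A row that joins the prolyl hydroxylase P4HA1 with the pseudogene RPL17P50 rose from 4.05 ± 0.462 to 8.07 ± 0.451 FPKM (adjusted p = 0.0192). The procollagen protease ADAMTS14 fell from 3.03 ± 0.681 to 1.56 ± 0.149 FPKM (adjusted p = 0.0448). Of 8 tested matrix receptors other than integrins, 1 was higher and 3 lower at an unadjusted limma p under 0.05 (25.9% of all rows). By adjusted p, 1 rose (1.89% of all rows) and 1 fell (5.1% of all rows). SDC4, a syndecan, rose from 105 ± 2.997 to 143 ± 4.55 FPKM (adjusted p = 0.0308), and DDR1, a collagen-binding receptor kinase, fell from 17.0 ± 1.10 to 11.2 ± 1.18 FPKM (adjusted p = 0.0406). The median log2 fold change of these 8 was -0.28. Among 8 tested matrix ligands of other families, 0 passed the adjusted threshold (limma). An unadjusted p under 0.05 was reached by 2, 1 in each direction, against 25.9% of all rows. The median of these 8 ligands was -0.08.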

How the data were processed

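Poly(A) RNA of HCT-116 cells was sequenced as paired ends in 3 GapNC and 3 GapC9 libraries, grouped by the labels. The authors mapped the reads with HISAT to a UCSC human genome and deposited FPKM values from StringTie. The submitters' processing notes name HISAT2 2.0, StringTie 1.3.0 and Bowtie 0.12.2 and the mouse build mm8, so the build behind the values is uncertain. Whether read strand was used is not given in the sources used here. All 6 columns of library values were used, and 0 were left unused. StringTie can join neighboring genes in a row, and 48 member rows carry an Ensembl and 30 an assembled identifier. The count test of the authors, edgeR, was not run here, since the deposited table gives only FPKM. Its depth is known only from the commonest low value of FPKM times transcript length.

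The deposited values were not rescaled. The fit was made by limma 3.58.1 (lmFit, eBayes with trend, under R 4.3.3) to log2(FPKM + 0.1) of the 16028 rows averaging 0.1 FPKM or more, with Benjamini-Hochberg adjustment. Fold changes are on that scale and understate those of low genes. SDs come from the 3 FPKM values of a group, and values after a fold change with ± are limma's standard errors. The fit was tested on simulated data with independent noise in each library. Such data hold no trend on GC content, so that test does not bear on the trends seen here. Positions, overlaps and GC content (99.3% of tested rows) came from the GENCODE annotation of GRCh38 through the listed transcripts, and promoters from RefSeq. Tables were handled in Python 3.11.15 with pandas 2.3.3, and exact tests in scipy 1.17.1.

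1 member is included in the counts and is not reported here by name. The members and lists were chosen with earlier results of these data known. Named were members past either threshold or with a mean of at least 1 FPKM in a group, partner chains of these, and list genes past either threshold. The hemidesmosome partners PLEC and CD151, the lowest and leukocyte subunits and the cell type markers were added after their values were seen. Alternatives were pseudocounts of 1 and 0.01 FPKM, a filter at 1 FPKM or none, rows listed at 0 left out, median and quantile scaling, limma without trend or with robust variances, the replicate number as a block, a GC correction (lowess, span 0.3) and each library left out.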

Additional observations from a re-analysis of the deposited data

How the results depend on the processing

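The direction of the 10 members called by either rule held in every alternative that tested them. Under the replicate block, limma called 0 members and 0 genes in either direction by adjusted p (24 members and 4570 genes at an unadjusted p under 0.05). Deviations from the group mean correlated weakly between libraries of the same number (0.0970, 0.0398 and 0.0243). GapNC replicates 1 and 2 correlated best with the GapC9 replicate of the same number, and GapNC replicate 3 with GapC9 replicate 2. Whether the numbers pair the libraries was therefore not settled. The block changed no other count by over 1.5 times. The GC correction gave 13 higher and 8 lower members and 1055 and 1233 genes. With no filter, 2 members were lower, and 146 higher and 346 lower genes were called, with 555 higher by the fold rule. Median scaling gave 483 and 427 genes, and quantile normalization 516 lower. At 1 FPKM, 3 members were lower by the fold rule, and 116 genes were higher and 380 lower. Causes were not tested, except that the filters change which rows enter. With a library left out, adjusted calls ranged over 0 to 4 higher and 0 to 3 lower members and 16 to 241 and 17 to 573 genes. Fold calls ranged over 2 to 3 and 4 to 6 members and 323 to 386 and 554 to 809 genes.

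Of 748 values for the 45 members under alternatives, 25 changed sign, all in 11 members whose reported change was within 0.23 of 0. Under median scaling these were LAMA3 (0.060), COL1A1 (0.13), ITGA9 (0.069) and ITGA1 (0.13). Under quantile normalization they were COL1A1 (0.11) and ITGA1 (0.12), and under the GC correction COL1A1 (0.26), ITGA9 (0.10) and COL16A1 (0.083). With a library left out, the log2 fold change ran from -0.38 to 0.046 for COL16A1, -0.0053 to 0.24 for COL17A1, -0.11 to 0.14 for COL1A1, -0.048 to 0.18 for COL3A1, -0.080 to 0.15 for COL6A1, -0.000059 to 0.30 for COL6A2, -0.072 to 0.072 for ITGA1, -0.23 to 0.44 for ITGB8, -0.0023 to 0.053 for LAMA2 and -0.21 to 0.039 for LAMA3.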
